A study of Mus musculus with 9 samples.

Results

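The genes described here belong to the liver X receptor (LXR) pathway and to the export of cholesterol from cells. They are the receptor genes Nr1h3 and Nr1h2 and the genes Abca1, Abcg1, Apoe, Pltp, Mylip, Lpcat3, Smpdl3a and Abca3. The 10 genes were chosen by name with earlier results of these data known, among them the higher Abca1 level in fibrillar than in non-fibrillar collagen. That difference is therefore given as a description with no test. Counts of members in that comparison, or in those that share its arrays, support nothing. Each gene was read from the probe set, selected on the highest mean over all arrays, that carries its symbol alone. Of the 10 genes, 9 were measured among 19938 genes in all, each by 1 probe set; Nr1h2 was not analysed here.

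RNA was taken from D2.OR, a line of mouse mammary tumor cells that tends to stay dormant after it spreads. The cells were grown in 3D culture and their RNA hybridised to 9 Affymetrix arrays. Titles place 3 arrays in each of the groups Fibrillar, Non-fibrillar and Matrigel, where the collagen groups are fibrillar and non-fibrillar collagen I and Matrigel is a basement membrane extract. All groups share the cell line and the 3D format, and the labels name no added agent, no time in culture and no separate cultures, so the spread between arrays may be technical. The Matrigel group has only its titles behind it, because its growth label gives the non-fibrillar wording and the design text lists the collagen forms alone. Any batch that went with its later accessions cannot be told apart from the matrix.

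LXRs are nuclear receptors that bind oxysterols, oxidised forms of cholesterol, and sit on DNA together with a retinoid X receptor. When a cell holds more sterol than it needs, LXR switches on genes that move cholesterol out of the cell, limit its uptake and change the fatty acids of membrane phospholipids. In the mammary gland lipid synthesis and export serve milk formation, and in macrophages the same receptors govern the unloading of cholesterol.

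An LXR element is a direct repeat of a short half-site with a spacer, and Abca1 carries a well-known one close to its start. The RefSeq promoter windows (build GRCm38.p6), 250 bases before to 50 after each start, were searched on both strands for the loose form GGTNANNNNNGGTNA, in which 8 letters are fixed. This form was picked with the Abca1 element in mind, so the match in Abca1 is a description. Of 32851 windows, 236 (0.718%) held all fixed letters and 15.4% held at least 7 of them. The table listed windows for 8 of the 10 genes, not Abcg1 and Smpdl3a, and among these Abca1 alone had all letters. The search also covered 101 genes of the pathway lists described further on, of which Fasn and Srebf1 had all letters. The stretches are shown because these 3 genes share the pattern; each is printed on the strand of its gene with the element in capitals, and in all 3 it reads in the direction of the motif on the opposite strand.
Abca1, chr4:53159940-53159969, minus strand: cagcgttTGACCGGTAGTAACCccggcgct
Fasn, chr11:120824750-120824779, minus strand: gccacgaTGACCGGTAGTAACCccgcctga
Srebf1, chr11:60210631-60210660, minus strand: acgacagTGACCGCCAGTAACCccagcgcg
The capitals are identical in Abca1 and Fasn. For contrast, the nearest matches in the windows of Apoe and Abca3 have 7 of the 8 letters and that of Mylip has 6, a level that 84.1% of all windows reach.
Apoe, chr7:19698392-19698421, minus strand: cgaactcGGCAAGGGGAGGTAAacagacct
Abca3, chr17:24351781-24351810, plus strand: caacccaTCACGCACGCTCACCccacccta
Mylip, chr13:45389643-45389672, plus strand: cggagctGGGGAGGAGGGGCAAgcacgctg
A window covers only the bases next to the start, and the arrays did not measure binding.

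Expression of all 9 measured genes was lowest, on average, in non-fibrillar collagen. Levels below are deposited log2 values after RMA normalization, so a difference of 1 is a 2-fold change, and groups have n = 3 arrays. A gene passed when its Benjamini-Hochberg adjusted p in limma, over all 19938 genes, was under 0.05. In these bulk cultures, fewer cells of a kind and less RNA per cell cannot be told apart.

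Nr1h3 encodes LXR alpha, the receptor that also drives its own gene in some cells. Its levels in replicates 1, 2 and 3 were 8.97, 9.04 and 9.30 in fibrillar collagen, 8.55, 8.73 and 8.95 in non-fibrillar collagen, and 9.62, 9.73 and 9.77 in Matrigel. The 3 groups did not overlap, with Matrigel highest. Against Matrigel, Nr1h3 was 1.95-fold lower in non-fibrillar collagen (log2 -0.97 ± 0.108 SE, limma adjusted p = 4.1e-04) and 1.52-fold lower in fibrillar collagen (-0.60 ± 0.108, adjusted p = 0.0156). The latter call was lost without fibrillar replicate 1 or 2 or Matrigel replicate 2 or 3 (adjusted p 0.058 to 0.065). Between the collagens the difference was 0.36 ± 0.123 and did not pass (limma adjusted p = 0.152). Arrays of the same number moved together there, and with the replicate number as a block the same difference passed (adjusted p = 0.0245).

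Abca1 is the transporter that loads cellular cholesterol and phospholipid onto lipid-poor apolipoprotein A-I. It read 8.90, 9.08 and 9.05 on the fibrillar arrays, 7.91, 8.03 and 8.11 on the non-fibrillar arrays and 8.77, 9.06 and 8.96 on the Matrigel arrays. The non-fibrillar arrays lay apart from the other 6, which overlapped. The group means were 9.01 ± 0.10 (SD, n = 3) in fibrillar collagen, 8.02 ± 0.10 in non-fibrillar collagen and 8.93 ± 0.149 in Matrigel. The collagen difference, the one known when the gene was chosen, was 0.99 ± 0.071 (SE), a 1.99-fold higher level with fibrillar collagen. Between non-fibrillar collagen and Matrigel, which shares the non-fibrillar arrays with that comparison, Abca1 was 1.89-fold lower (-0.91 ± 0.084, limma adjusted p = 1.4e-04). Fibrillar collagen and Matrigel differed by 0.080 ± 0.084 (limma adjusted p = 0.661), with a 95% interval from -0.11 to 0.27 that leaves room for a difference in either direction.

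Abcg1 exports cholesterol to lipoprotein particles that already carry lipid. Its levels were 7.75, 7.68 and 7.88 in fibrillar collagen, 7.06, 7.30 and 7.06 in non-fibrillar collagen, and 7.85, 8.05 and 7.83 in Matrigel. As for Abca1, the non-fibrillar arrays stood alone at the bottom, with replicate 2 the highest of them. The gene was 1.55-fold higher in fibrillar collagen than in its non-fibrillar form (0.63 ± 0.085, limma adjusted p = 0.0139). It was 1.70-fold lower in non-fibrillar collagen than in Matrigel (-0.77 ± 0.087, limma adjusted p = 4.3e-04). Fibrillar collagen and Matrigel differed by -0.14 ± 0.087, with a 95% interval from -0.33 to 0.055 (limma adjusted p = 0.441).

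Apoe and Pltp act on the particles that take up exported lipid. Apolipoprotein E is the protein of such particles made outside the liver by many cells, and its gene had the smallest spread of group means along with Lpcat3. Apoe read 8.49, 8.56 and 8.63 in fibrillar collagen, 8.44, 8.38 and 8.56 in non-fibrillar collagen and 8.49, 8.69 and 8.66 in Matrigel. All groups overlapped, and no comparison passed: the collagen difference was 0.098 ± 0.060 (95% interval -0.046 to 0.24, limma adjusted p = 0.402), non-fibrillar collagen against Matrigel -0.15 ± 0.067 (limma adjusted p = 0.197) and fibrillar collagen against Matrigel -0.052 ± 0.067 (limma adjusted p = 0.728). Pltp encodes a secreted protein that transfers phospholipids between lipoproteins. It read 8.81, 8.67 and 8.81 on fibrillar, 8.46, 8.34 and 8.41 on non-fibrillar and 8.81, 8.88 and 8.67 on Matrigel arrays, so only the non-fibrillar group stood apart. It was 1.28-fold higher in fibrillar collagen than in its non-fibrillar form (0.36 ± 0.055, limma adjusted p = 0.0192) and 1.30-fold lower in non-fibrillar collagen than in Matrigel (-0.38 ± 0.063, adjusted p = 0.0035). Fibrillar collagen and Matrigel differed by -0.022 ± 0.063 (95% interval -0.16 to 0.12, limma adjusted p = 0.890), a value whose sign turned under 3 alternatives.

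Mylip, also called IDOL, is the ubiquitin ligase that marks lipoprotein receptors for breakdown and so limits cholesterol uptake. It read 8.82, 8.69 and 8.69 in fibrillar collagen, 8.34, 8.15 and 8.12 in non-fibrillar collagen and 9.04, 8.99 and 8.91 in Matrigel. None of the groups overlapped. Mylip was 1.45-fold higher in fibrillar collagen than in its non-fibrillar form (0.53 ± 0.070, limma adjusted p = 0.0130) and 1.72-fold lower in non-fibrillar collagen than in Matrigel (-0.78 ± 0.066, adjusted p = 9.0e-05). Fibrillar collagen was -0.25 ± 0.066 from Matrigel, which did not pass (limma adjusted p = 0.0743) but did among genes with a mean of at least 6 (adjusted p = 0.0366).

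Of the last 3 genes, Lpcat3 and Abca3 concern membrane lipids. Lpcat3 puts polyunsaturated fatty acids into phospholipids. Its levels were 11.40, 11.42 and 11.39 in fibrillar collagen, 11.25, 11.26 and 11.26 in non-fibrillar collagen, and 11.30, 11.40 and 11.38 in Matrigel. The fibrillar and non-fibrillar arrays did not overlap, at a difference of 0.15 ± 0.032, or 1.11-fold (limma adjusted p = 0.0459). This was the member just inside the threshold, and it lay outside with the replicate number as a block (adjusted p = 0.0783), after centring on array medians (0.125) and without any one of the 6 arrays (0.0867 to 0.117). Against Matrigel the Lpcat3 differences were -0.11 ± 0.039 for non-fibrillar collagen (limma adjusted p = 0.115) and 0.045 ± 0.039 for fibrillar collagen (limma adjusted p = 0.590).

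Smpdl3a encodes a secreted nucleotide phosphodiesterase related to acid sphingomyelinase. It read 8.23, 8.13 and 8.23 in fibrillar collagen, 7.86, 7.83 and 7.96 in non-fibrillar collagen and 8.77, 8.73 and 8.70 in Matrigel, again with no overlap between any groups. It passed in all 3 comparisons, at 1.24-fold higher in fibrillar collagen than in its non-fibrillar form (0.31 ± 0.050, limma adjusted p = 0.0216), 1.80-fold lower in non-fibrillar collagen than in Matrigel (-0.85 ± 0.049, adjusted p = 9.9e-06) and 1.45-fold lower in fibrillar collagen than in Matrigel (-0.54 ± 0.049, adjusted p = 5.2e-04). Abca3 moves phospholipids into lamellar bodies in lung epithelium. It read 7.96, 7.98 and 7.91 in fibrillar collagen, 7.76, 7.82 and 7.75 in non-fibrillar collagen and 7.84, 7.92 and 7.90 in Matrigel. The collagens did not overlap, but Abca3 was just outside the threshold at 0.17 ± 0.039 (limma adjusted p = 0.0549) and passed with all 9 arrays in the fit (adjusted p = 0.0354). Its differences from Matrigel were -0.11 ± 0.042 for non-fibrillar collagen (limma adjusted p = 0.129) and 0.061 ± 0.042 for fibrillar collagen (limma adjusted p = 0.50).

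**Figure D1:**
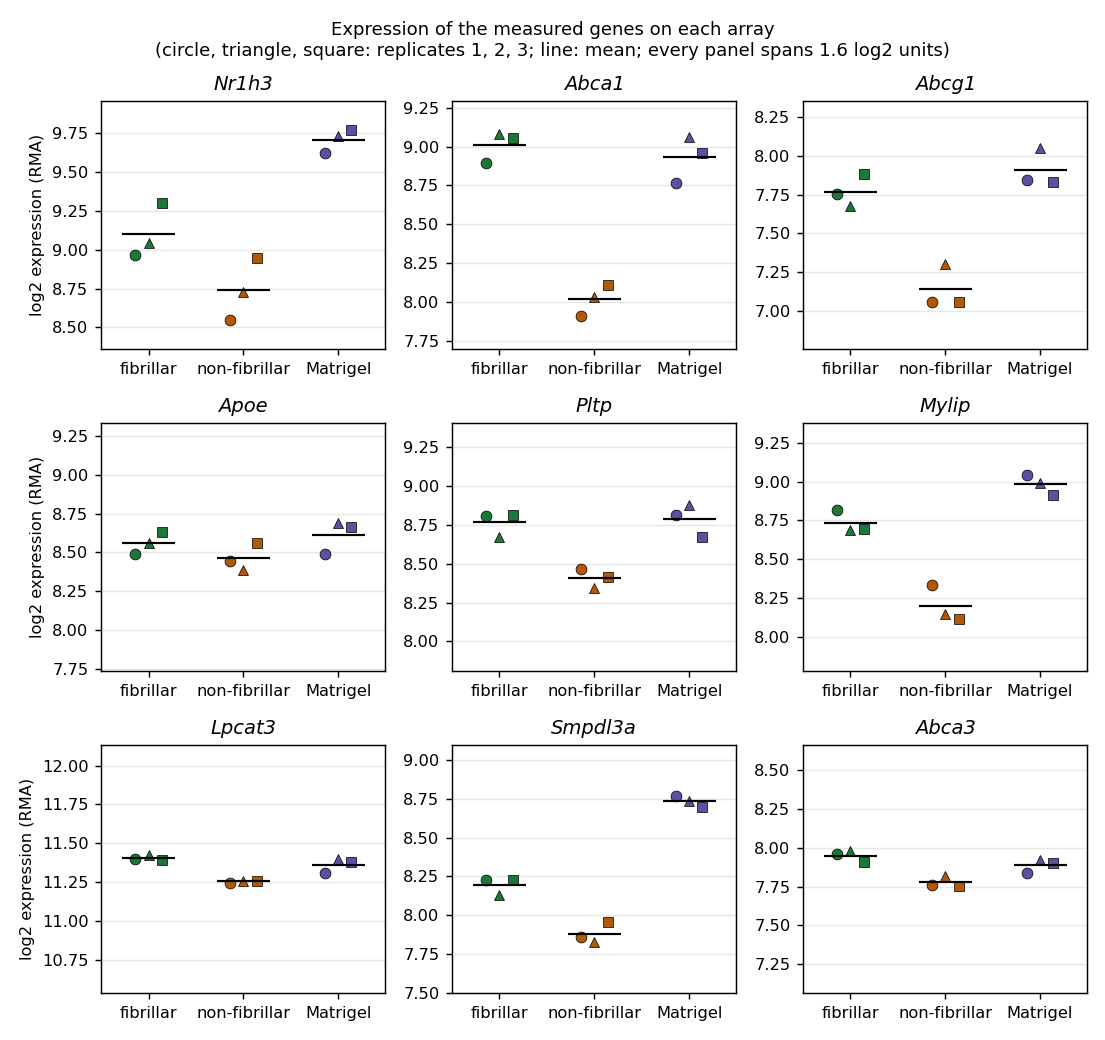
Deposited log2 RMA expression (vertical axis) of each measured gene on the 9 arrays, by matrix (horizontal axis); symbols are replicates 1, 2 and 3, lines are group means and every panel spans the same number of log2 units, with its own start. The non-fibrillar mean is the lowest in all 9 panels, Abca1, Abcg1 and Pltp have overlapping fibrillar and Matrigel arrays, and Nr1h3, Mylip and Smpdl3a have separate groups with Matrigel on top.

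The members fell into a few orders of level across the matrices. For Nr1h3 and Smpdl3a, Matrigel was above fibrillar collagen and non-fibrillar collagen was lowest, with the collagen step of Nr1h3 passing only with the block. Mylip had the same order of means, with its upper step short of the threshold. For Abca1, Abcg1 and Pltp the upper pair, fibrillar collagen and Matrigel, did not differ beyond the spread of their arrays. For Lpcat3, Abca3 and Apoe the group means spanned 0.15, 0.17 and 0.15 log2 units, and neither difference from Matrigel passed.

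Between the collagens Abca1 is not counted, since its difference was known when it was chosen. Of the other members, 5 passed as higher in fibrillar collagen and 0 as lower, while Nr1h3, Apoe and Abca3 did not pass. Over all genes 2.71% passed as higher and 3.69% as lower. The collagen groups did not overlap for 8 of the 9 members, all higher in fibrillar collagen, against 25.2% of all genes in either direction. The median member difference was 0.36 log2 units and the median of all genes 0.0080. Nothing is read from these counts, since the genes were chosen with this comparison known. Most calls were lost in fits with 1 array left out: without fibrillar replicate 3 none of these 5 members passed, and without any other collagen array 1 did. In these fits Abcg1 passed only without non-fibrillar replicate 2, Pltp only without fibrillar replicate 2, Smpdl3a only without non-fibrillar replicate 3, and Mylip without replicate 1 of either collagen. Such fits also called fewer genes over all, 150 to 569 where the main fit called 1277. The differences ranged over all alternatives from 0.57 to 0.71 for Abcg1, 0.33 to 0.41 for Pltp and 0.49 to 0.60 for Mylip. For Smpdl3a the range was 0.29 to 0.35 and for Lpcat3 0.13 to 0.21.

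Arrays of the same number gave another view of this comparison. For Abca1 the fibrillar array exceeded its non-fibrillar counterpart by 0.99, 1.05 and 0.95 log2 units in replicates 1, 2 and 3. For Abcg1 the differences were 0.69, 0.37 and 0.82, with the smallest where the non-fibrillar array was high. Mylip gave 0.48, 0.54 and 0.58. For Nr1h3 they were 0.42, 0.32 and 0.35, closer together than the arrays of either collagen group. The other members were also above 0 in every pair, from 0.049 for Apoe in replicate 1 to 0.40 for Pltp in replicate 3.

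**Figure D2:**
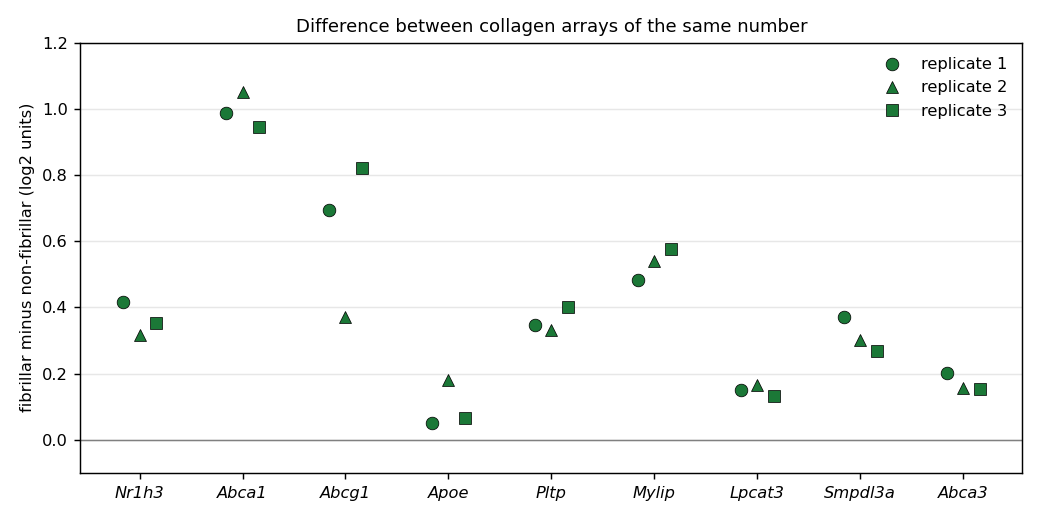
Fibrillar minus non-fibrillar log2 expression (vertical axis) for the measured genes (horizontal axis), with circles, triangles and squares for the arrays numbered 1, 2 and 3. Every point is above 0, Abca1 lies between 0.95 and 1.05, and Abcg1 has the widest spread, 0.37 to 0.82.

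Against Matrigel, 6 members passed as lower in non-fibrillar collagen (Nr1h3, Abca1, Abcg1, Pltp, Mylip and Smpdl3a) and 0 as higher. Over all genes 7.07% passed as lower and 6.75% as higher. The groups did not overlap for 8 members, all lower, against 28.4% of all genes, and the median difference was -0.77 over the members and 0.00061 over all genes. These 6 calls held in every alternative tried. In fibrillar collagen against Matrigel, 2 members passed as lower (Nr1h3 and Smpdl3a) and 0 as higher, where 2.37% of all genes were lower and 1.45% higher. There 3 members did not overlap, all lower, against 20.4% of all genes, and the median member difference was -0.052, with 0.0028 over all genes. The 3 comparisons share arrays in pairs, so they are not separate evidence. Nothing is read from the counts against Matrigel either, since the genes were chosen with results of these data known. The non-fibrillar arrays here are also those of the known Abca1 difference.

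**Figure D3:**
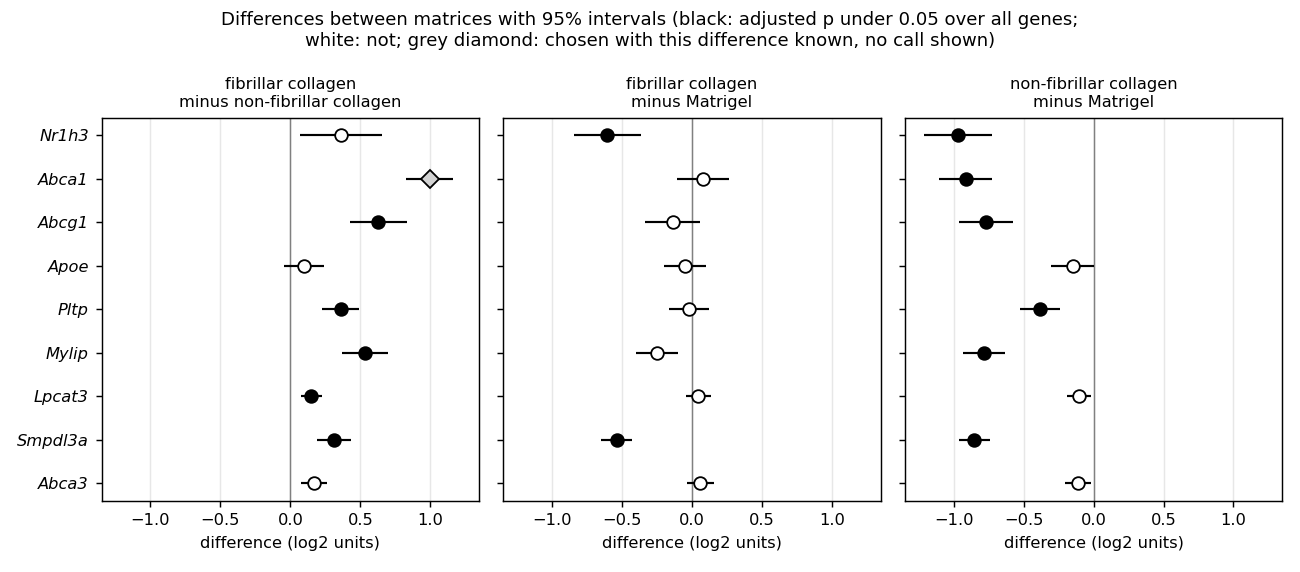
Differences in log2 expression (horizontal axis) with 95% intervals from limma for each measured gene (vertical axis) in the 3 comparisons, n = 3 arrays per group; black circles passed over all genes, white circles did not, and the grey diamond marks Abca1 in the comparison known when it was chosen. All 9 points lie above 0 in the collagen comparison and below 0 for non-fibrillar collagen minus Matrigel, while in fibrillar collagen minus Matrigel only Nr1h3 and Smpdl3a are black.

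Genes with the pattern most like each member whose group means spanned over 0.5 log2 units were sought among all other genes. Predicted gene models, with symbols of Gm and digits, were skipped in this search but kept in the ranks of members. The nearest genes had the smallest root mean square (RMS) difference over the 9 arrays after each gene was centred on its mean. For Abca1, whose own RMS was 0.462, they were the ceramide kinase gene Cerk (RMS difference 0.137), Ahnak2 (0.143), the imprinted Peg3 (0.146), the lysosomal cholesterol exporter Npc1 (0.158) and the anthrax toxin receptor gene Antxr1 (0.16). Abcg1 ranked 14 of 19937 genes by likeness to Abca1, at 0.188, while Abca1 ranked 152 by likeness to Abcg1. The other members ranked lower by likeness to Abca1: Mylip 59, Pltp 191, Nr1h3 279, Smpdl3a 292, Abca3 1343, Lpcat3 1472 and Apoe 1513. The genes nearest Abcg1 were Tbc1d24, Dmpk, Fnip2, Mertk and Id3 (0.0942 to 0.109, own RMS 0.349). Those nearest Mylip were Epas1, Fnip2, Mertk, Trpv2 and Coro6 (0.0727 to 0.0916, own RMS 0.334), so Fnip2 and Mertk are on both lists. Nr1h3 was most like Trem2, Aldh6a1, Hmox1, Kitl and Gstm1 (0.0900 to 0.0964, own RMS 0.419). Smpdl3a was most like Ttyh2, Rgl1, Plpp3, Aldh6a1 and Fabp7 (0.0313 to 0.0674, own RMS 0.355). By likeness to Nr1h3, Smpdl3a ranked 22 and the other members from 211 (Abcg1) to 4127 (Abca3). With 3 groups of 3 arrays many genes share such profiles, and the RMS differences carry no test.

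Other genes of the pathway were followed through 8 lists, of which 120 of 133 different genes were measured. Between the collagens 18 of them passed as higher in fibrillar collagen and 3 as lower, where 2.71% and 3.69% of all genes did. Against Matrigel 13 passed as higher and 23 as lower in non-fibrillar collagen (6.75% and 7.07% of all genes), and 6 and 5 in fibrillar collagen (1.45% and 2.37%). These shares are the background for each list below. The median collagen difference of the 120 genes was 0.030. The lists too were drawn up with results of these data known, so their counts are a description.

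Of 19 other LXR target genes, 6 passed as higher in fibrillar than in non-fibrillar collagen and 0 as lower, with a list median of 0.12. Mertk, a receptor for the uptake of dying cells, was 1.58-fold higher (0.66 ± 0.052, limma adjusted p = 0.0049). Fasn, fatty acid synthase, read 11.64, 11.66 and 11.67 in fibrillar and 11.23, 11.19 and 11.11 in non-fibrillar collagen (0.48 ± 0.041, limma adjusted p = 0.0053). Srebf1, the transcription factor of fatty acid synthesis, read 9.75, 9.62 and 9.71 against 9.28, 9.26 and 9.25 (0.43 ± 0.042, limma adjusted p = 0.0067). Fasn and Srebf1 are the genes printed above with all letters of the LXR motif, out of 15 genes of this list with a window. Fasn was higher in fibrillar collagen than in Matrigel (0.38 ± 0.050, limma adjusted p = 0.0034), with 11.19, 11.32 and 11.32 on the Matrigel arrays. The lipoprotein lipase gene Lpl was lower in fibrillar collagen than in Matrigel (-0.36 ± 0.054, limma adjusted p = 0.0067), the other call of the list there. In non-fibrillar collagen against Matrigel 4 genes passed as lower and 0 as higher, led by Mertk (-0.81 ± 0.054, limma adjusted p = 2.2e-05), Lpl (-0.73 ± 0.054, adjusted p = 3.5e-05) and Srebf1 (-0.28 ± 0.044, adjusted p = 0.0027).

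Of 20 genes of cholesterol movement and storage, 3 passed as higher in fibrillar than in non-fibrillar collagen and 0 as lower. They were Lipa, the lysosomal acid lipase that frees cholesterol from its esters (0.63 ± 0.046, limma adjusted p = 0.0042), Npc1 (0.62 ± 0.059, adjusted p = 0.0066) and the ester hydrolase gene Nceh1 (0.55 ± 0.081, adjusted p = 0.0177). With the replicate number as a block, Ttc39b also passed as higher (log2 0.40, adjusted p = 0.0229), and Stard4 (-0.24, adjusted p = 0.0428) and Tmem97 (-0.22, adjusted p = 0.0405) as lower. In non-fibrillar collagen against Matrigel 5 passed as lower, led by Lipa (-1.11 ± 0.051, limma adjusted p = 4.3e-06), Nceh1 (-0.65 ± 0.073, adjusted p = 4.1e-04) and Npc1 (-0.70 ± 0.092, adjusted p = 9.6e-04), and 2 as higher, Tmem97 (0.33 ± 0.056) and Cav1 (0.22 ± 0.045). In fibrillar collagen against Matrigel 2 passed as lower, Lipa (-0.48 ± 0.051, limma adjusted p = 0.0012) and Npc2 (-0.40 ± 0.066, adjusted p = 0.0105), and 0 as higher.

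Of 13 receptor partners and cofactors, the coactivator gene Ncoa1 alone passed between the collagens (0.23 ± 0.035, limma adjusted p = 0.0193). Rxra, the dimer partner of LXR, read 8.55, 8.52 and 8.52 in fibrillar, 8.40, 8.24 and 8.37 in non-fibrillar collagen and 8.67, 8.69 and 8.67 in Matrigel. It passed as lower in non-fibrillar collagen than in Matrigel (-0.34 ± 0.047, limma adjusted p = 0.0014), as did Ncoa1 (-0.31 ± 0.039) and Ncoa2 (-0.18 ± 0.041), with 0 higher, and between the collagens it did not pass (0.19 ± 0.050, limma adjusted p = 0.0770). No gene of this list passed in fibrillar collagen against Matrigel.

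Among 9 genes that make or remove oxysterol ligands, Cyp39a1, an oxysterol hydroxylase, passed as higher in fibrillar collagen than in its non-fibrillar form (0.24 ± 0.032, limma adjusted p = 0.0142) and as lower in non-fibrillar collagen than in Matrigel (-0.29 ± 0.037, adjusted p = 7.5e-04). Cyp7b1, which also hydroxylates oxysterols, passed as higher than in Matrigel in non-fibrillar (0.45 ± 0.051, limma adjusted p = 4.5e-04) and fibrillar collagen (0.38 ± 0.051, adjusted p = 0.0038).

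Of 19 other transporters of ABC subfamilies A and G, 4 passed as higher in fibrillar than in non-fibrillar collagen and 0 as lower: Abca2 (0.33 ± 0.045), Abca5 (0.49 ± 0.069), Abca7 (0.33 ± 0.062) and Abca8b (0.33 ± 0.067). Abca8a and Abca8b are near copies. They read 4.46 to 5.18 and 4.54 to 5.55 over the arrays, below the median of all probe sets (5.98 to 6.05). Their values are therefore uncertain. In non-fibrillar collagen against Matrigel 5 passed as lower and 0 as higher, led by Abca8b (-0.71 ± 0.082), Abca8a (-0.51 ± 0.080) and Abca5 (-0.35 ± 0.061). In fibrillar collagen against Matrigel 2 passed as lower, Abca8a (-0.39 ± 0.080) and Abca8b (-0.38 ± 0.082). Among 8 lipoprotein receptors and MYLIP substrates, Lrp1 (0.43 ± 0.033, limma adjusted p = 0.0046) and Sorl1 (0.30 ± 0.051, adjusted p = 0.0265) passed as higher in fibrillar than in non-fibrillar collagen. Vldlr, a substrate of MYLIP, did not pass (-0.074 ± 0.077, limma adjusted p = 0.624), nor did Lrp8 (0.20 ± 0.048, adjusted p = 0.0635). Against Matrigel the calls were Sorl1, higher in fibrillar collagen (0.24 ± 0.050), and Lrp6, lower in non-fibrillar collagen (-0.16 ± 0.044).

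Sterol synthesis is driven by SREBP2 when sterol is short. Of 21 genes of this list 2 passed as lower in fibrillar collagen, Msmo1 (-0.21 ± 0.042, limma adjusted p = 0.0362, and 0.0577 with the replicate number as a block) and Pmvk (-0.20 ± 0.043, adjusted p = 0.0461), and 0 as higher, with a list median of -0.041. In non-fibrillar collagen against Matrigel 8 passed as higher, led by Msmo1 (0.39 ± 0.042, limma adjusted p = 3.2e-04), Pmvk (0.44 ± 0.048, adjusted p = 3.4e-04) and Tm7sf2 (0.42 ± 0.065, adjusted p = 0.0024), and 2 as lower, Mvd (-0.19 ± 0.047) and Scap (-0.13 ± 0.038). In fibrillar collagen against Matrigel 2 passed as higher, Pmvk (0.24 ± 0.048) and Msmo1 (0.18 ± 0.042), and 0 as lower. Of 13 genes of phospholipid remodelling, Lpcat1 passed as higher (0.45 ± 0.045, limma adjusted p = 0.0070) and Smpdl3b as lower (-0.22 ± 0.047, adjusted p = 0.0451, and 0.0714 with the block) in fibrillar than in non-fibrillar collagen. Lpcat1 thus had the direction of Lpcat3, and Smpdl3b the direction opposite to Smpdl3a. Against Matrigel, Mboat1 was higher in non-fibrillar (0.37 ± 0.057) and fibrillar collagen (0.29 ± 0.057), Smpdl3b higher in non-fibrillar collagen (0.34 ± 0.055), and Lpcat1 (-0.32 ± 0.047) and Smpd1 (-0.20 ± 0.043) lower there.

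Leaving out an array moved many of these calls. Between the collagens, Srebf1, Fasn, Mertk, Npc1, Lipa, Lrp1 and Lpcat1 passed whichever array was left out, while Ncoa1, Abca8b, Sorl1, Pmvk and Msmo1 lost their call whichever of the 6 was left out, and the other 9 calls were lost in 3 to 5 of the 6 fits. In fibrillar collagen against Matrigel, Fasn, Lpl, Cyp7b1, Npc2 and Lipa passed in all 6 fits, Msmo1 and Sorl1 in none, and Pmvk, Abca8a, Abca8b and Mboat1 lost the call in 4 to 5. In non-fibrillar collagen against Matrigel, Scap lost it in all 6, Lrp6 in 5, Cyp51 in 4, Abca2, Abca7 and Mvd in 3, Ncoa2 and Scd1 in 2 and Smpd1 in 1, and the other 27 calls in 0.

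**Figure D4:**
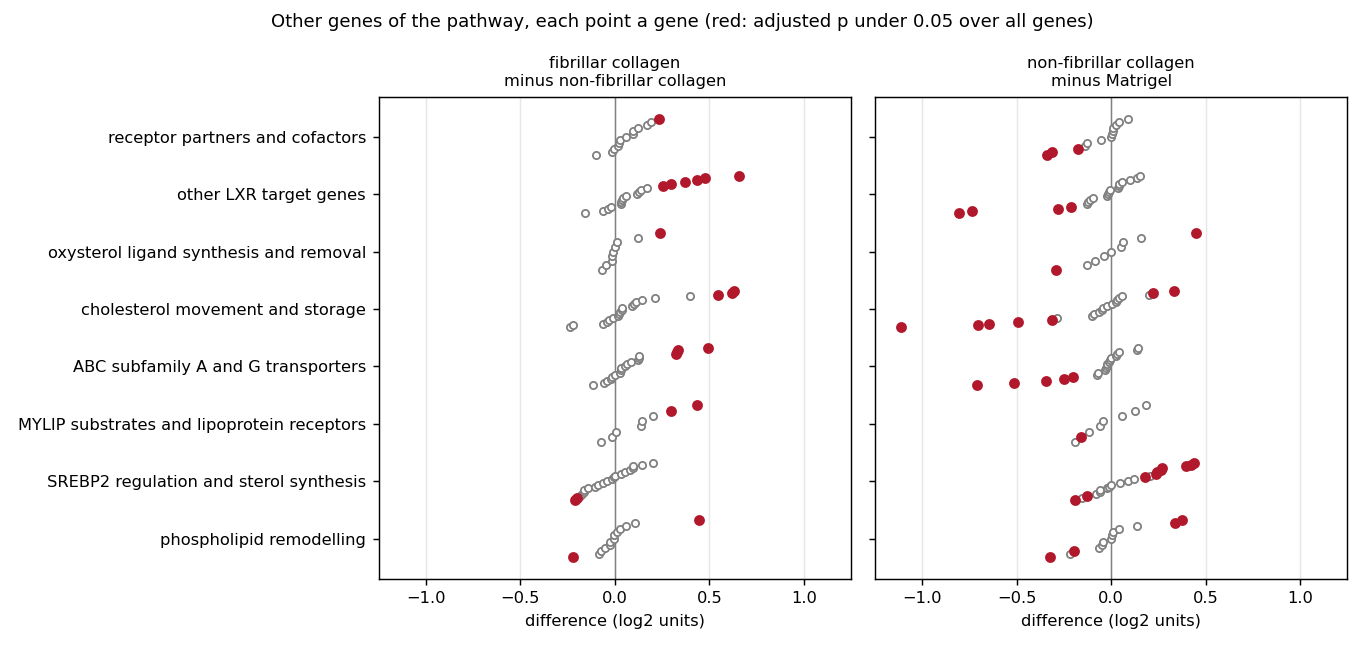
Differences in log2 expression (horizontal axis) of the other pathway genes by list (vertical axis), 1 point per gene, for fibrillar minus non-fibrillar collagen and non-fibrillar collagen minus Matrigel; red points passed over all genes. In the collagen comparison 18 red points lie above 0 and 3 below, and in the other panel 13 lie above and 23 below, with 8 of the 13 among the genes of sterol synthesis.

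The cell type was checked by marker lists, whose part in the results was not tested. Of the epithelial keratins, Krt8 (13.1 to 13.3), Krt18 (12.6 to 12.9), Krt14 (11.2 to 11.6) and Krt7 (9.42 to 10.7) were high on every array. Cdh1 had a mean of 9.06, while Epcam was at 5.84 to 6.24, near the median of all probe sets (5.98 to 6.05). Krt19 at 5.14 to 5.45, Krt5 at 5.55 to 5.87 and Cldn4 at 5.71 to 5.97 were below that median. Macrophage markers were at 3.82 to 4.09 for Adgre1, 4.72 to 4.84 for Csf1r and 4.13 to 4.31 for Lyz2, below that median, but Cd14 was at 7.49 to 8.12 and Cd68 at 7.56 to 9.07. Of the adipocyte markers Adipoq was at 3.99 to 4.11, Lipe at 7.28 to 7.55 and Pparg at 9.27 to 9.97, and of the fibroblast markers Dcn was at 4.32 to 4.58, Col1a1 at 8.55 to 8.73 and Pdgfra at 10.1 to 11.4. The mean of 16 macrophage markers was 5.11 to 5.16 on fibrillar, 5.07 to 5.10 on non-fibrillar and 5.11 to 5.19 on Matrigel arrays. The mean of 8 adipocyte markers was 6.04 to 6.14, 5.98 to 6.02 and 6.20 to 6.26, and that of 10 fibroblast markers 5.68 to 5.71, 5.58 to 5.66 and 5.72 to 5.78, so these list means had the same order of groups as Nr1h3, Mylip and Smpdl3a. Their medians over markers did not follow that order throughout. In fibrillar collagen against Matrigel the median difference was 0.0057 for the fibroblast and 0.021 for the macrophage list, against the order. For the adipocyte list it was -0.034, along with the order. In non-fibrillar collagen against Matrigel the macrophage median was 0.020, again against the order. The fibroblast median was -0.047 and the adipocyte median -0.069 there, along with the order. The mean of 13 epithelial markers was 8.68 to 8.71, 8.66 to 8.69 and 8.56 to 8.59. Single markers passed between the collagens: Cd68, a lysosomal protein of macrophages and other cells, at 0.83 ± 0.081 and Pdgfra at 0.67 ± 0.095 were higher in fibrillar collagen, as was Dsp at 0.53 ± 0.055, while Cd14 at -0.37 ± 0.079 and Krt7 at -0.30 ± 0.034 were lower. No adipocyte marker passed there. Against Matrigel, non-fibrillar collagen had lower Cd68 (-1.38 ± 0.081), Pdgfra (-1.01 ± 0.094), Fabp4 (-1.02 ± 0.083) and Pparg (-0.51 ± 0.069), in the direction of the members, and higher Cd14 (0.28 ± 0.073). Of the epithelial markers Krt7 (1.2 ± 0.039), Krt18 (0.28 ± 0.040), Epcam (0.28 ± 0.051) and Cldn7 (0.18 ± 0.048) were higher there and Dsp (-0.59 ± 0.056) and Krt14 (-0.30 ± 0.039) lower.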

How the data were processed

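The authors deposited log2 expression values for each probe set; the submitters' processing notes name RMA and Affymetrix Power Tools. RMA draws arrays towards 1 distribution, so that a shift common to most genes may be lost from the values. Tool versions and the run layout: not given in the sources used here. Column medians were 5.98 to 6.05, Pearson's r between arrays was 0.992 to 0.996 across probe sets, and no arrays were duplicates. The number of arrays limits the precision, and no detection calls were used.

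Of 35512 probe sets, 21789 carried 1 symbol, 1621 several and 12102 none listed; only the first were used, the one with the highest mean for the 999 genes with several. limma 3.58.1 in R 4.3.3 (lmFit, eBayes; two-sided) was run on the log2 values over 19938 genes: the collagens on their 6 arrays, the Matrigel comparisons in 1 fit of all 9. SE is limma's, a fold is the log2 difference taken off the log scale, and p-values measure the spread between arrays only. Scripts were tested on simulated data.

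The members and gene lists were chosen with earlier results of these data known. Named genes are all members, the 3 smallest p among passing genes per list and comparison (all passing genes where a list is short), and the 5 genes nearest each member whose group means span over 0.5; genes beyond these (Rxra and Abca8b between the collagens, Vldlr, Lrp8, Stard4, Ttc39b, Tmem97, Cav1, Mvd, Scap, Smpd1, genes named only for a call lost without an array, and the markers) were picked after their values were seen. To check pairing, deviations from group means were correlated between arrays of equal number: r was 0.221, 0.143 and 0.242 for the collagens, all above 0.1, so the numbers were taken to pair them, a pairing from the data and not a label. Not every pair passed with Matrigel. The main fits used no replicate block in any comparison, and the block was run as an alternative. Promoter sequences are RefSeq's (GRCm38.p6). Alternatives covered which arrays entered the fit, the block, normalization, filters, probe set handling, prior, weights, threshold and each array left out.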

Additional observations from a re-analysis of the deposited data

How the results depend on the processing

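Leaving aside the stricter threshold, 25 of 27 member differences kept their sign in every alternative; of 432 alternative values 388 stayed on the same side, 31 lost and 9 gained a call, and 4 turned sign, none of which passed; where no cause is given, the cause was not tested. For fibrillar collagen against Matrigel, Pltp (-0.022) was 0.0131 after quantile normalization again and ranged from -0.079 to 0.024 with single arrays left out, and Abca1 (0.080) ranged from -0.0011 to 0.145. Abca1 between the collagens, chosen with this difference known, is among the 432 values as a description and is left out of the call counts that follow. No other member kept its call between the collagens at an adjusted p of 0.01, and at most 1 did without 1 array. Member calls of fibrillar collagen against Matrigel went from 2 to 1 at 0.01, and to 1 to 2 without 1 array. Pathway calls went from 21 to 7 to 12 and from 11 to 5 to 7 without 1 array, as fits of fewer arrays call fewer genes (150 to 569 of 1277 over all genes between the collagens). For non-fibrillar collagen against Matrigel the member and pathway counts stayed within 1.5 times; over all genes 2755 calls became 1814 without Matrigel replicate 2 and 1419 at 0.01. With the replicate number as a replicate block the collagens, Abca1 again left out, gained Nr1h3 and lost Lpcat3 among the member calls. Their pathway calls were 22 (Msmo1 and Smpdl3b out, Ttc39b, Stard4 and Tmem97 in). For fibrillar collagen against Matrigel the block gave 3 member calls, adding Mylip (limma adjusted p = 0.0190). Among the pathway calls there, Msmo1 was out (limma adjusted p = 0.0623) and Smpd1 in (0.0444). For non-fibrillar collagen against Matrigel it gave 6 member calls, with Scap out of the pathway calls (0.0526). The share of higher calls over all genes moved with the scaling: 42.4% to 30.3% on centring between the collagens, 37.9% to 50.5% on quantile normalization for fibrillar collagen against Matrigel, and 48.8% to 62.8% on centring for non-fibrillar collagen.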
